A study of Mus musculus with 6 samples.

Results

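The 10 genes followed here belong to the contractile apparatus of smooth muscle and were measured in the bladder of mouse embryos, in the mesenchyme and in the urothelium: Acta2, Actg2, Tagln, Myh11, Myl9, Mylk, Cnn1, Lmod1, Smtn and Des. They were chosen by name, as every probe set of the array whose platform annotation gives 1 of these symbols and no other, and make up 10 of 18193 genes and 16 of 34945 probe sets with a single symbol. Both groups came from wild-type FVB/N embryos at embryonic day 13, Theiler stage 21, of unknown sex, whose bladders were dissected above the ureters, kept in 20 µM EDTA (a chelator that loosens an epithelium from its bed) for 20 minutes and parted with a needle. The 3 mesenchyme arrays carry the numbers 1, 2 and 4, and the 3 urothelium arrays 5, 7 and 8. RNA was amplified in 2 rounds and hybridised to Affymetrix MOE430 arrays, 1 unpooled sample each. The labels do not say whether the samples came from separate embryos, so p-values reflect only how much these arrays vary, and that variation may be technical.

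Smooth muscle contracts when myosin filaments pull on actin filaments. Calcium, bound to calmodulin, switches on myosin light chain kinase, which phosphorylates the regulatory light chain of myosin, and a phosphatase reverses this step. In the fetal bladder these genes mark the mesenchymal cells that become the detrusor, the muscle that empties the bladder, and several of them are also expressed by the muscle cells and pericytes of blood vessels. Many are transcribed under serum response factor (SRF) with its coactivator myocardin, which act at a DNA element called the CArG box.

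The separation can be read from marker genes. All 10 epithelial markers (among them Cdh1, Krt8 and Trp63) were higher in urothelium, and their signals summed to between 8235 and 11086 on mesenchyme arrays and to between 334890 and 347749 on urothelium arrays. All 8 fibroblast markers (among them Pdgfra, Dcn and Col1a1) were higher in mesenchyme, with sums of 253031 to 340189 on mesenchyme arrays and 9146 to 14351 on urothelium arrays. Urothelium 5 had the highest value of its group in both of the 2 measures of RNA quality, and mesenchyme 1 in 1 of them. Both are ratios of 3' to 5' signal of control probe sets, which grow as amplified RNA falls short of the 5' end. The beta-actin ratio was 8.40, 2.37 and 3.94 on mesenchyme 1, 2 and 4, and 8.60, 4.89 and 2.29 on urothelium 5, 7 and 8. The same ratio for Gapdh did not set mesenchyme 1 apart in that way, at 11.5, 14.2 and 15.7 on mesenchyme 1, 2 and 4, and 26.3, 15.0 and 9.77 on urothelium 5, 7 and 8.

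Most of the contractile genes were higher in mesenchyme at this stage. Of the 10 genes, 8 were higher in mesenchyme past limma's test (adjusted p under 0.05 over all genes), against 8.99% of all genes in that direction and 14.7% in either direction. None was higher in urothelium, and Smtn and Des were not past the test. On the same 8 genes every mesenchyme array lay above every urothelium array, a separation found in the mesenchymal direction for 18.2% of all genes and in either direction for 30.2%. The median log2 difference of the 10 genes, mesenchyme minus urothelium, was 4.29, against 0.11 over all genes. Differences are in log2(signal + 45), so those of dim genes are understated, and signals are the deposited linear intensities. In tissue samples like these, fewer cells of a type and less RNA per cell cannot be told apart. In all, 1636 genes were higher in mesenchyme and 1047 in urothelium; with every array centred on its median the split was 1281 and 1362, and the members' count was again 8. Without mesenchyme 1 and urothelium 5 the members' count was 8 as well, and the log2 differences of those 8 genes lay between 2.05 for Lmod1 and 5.90 for Myl9.

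**Figure D1:**
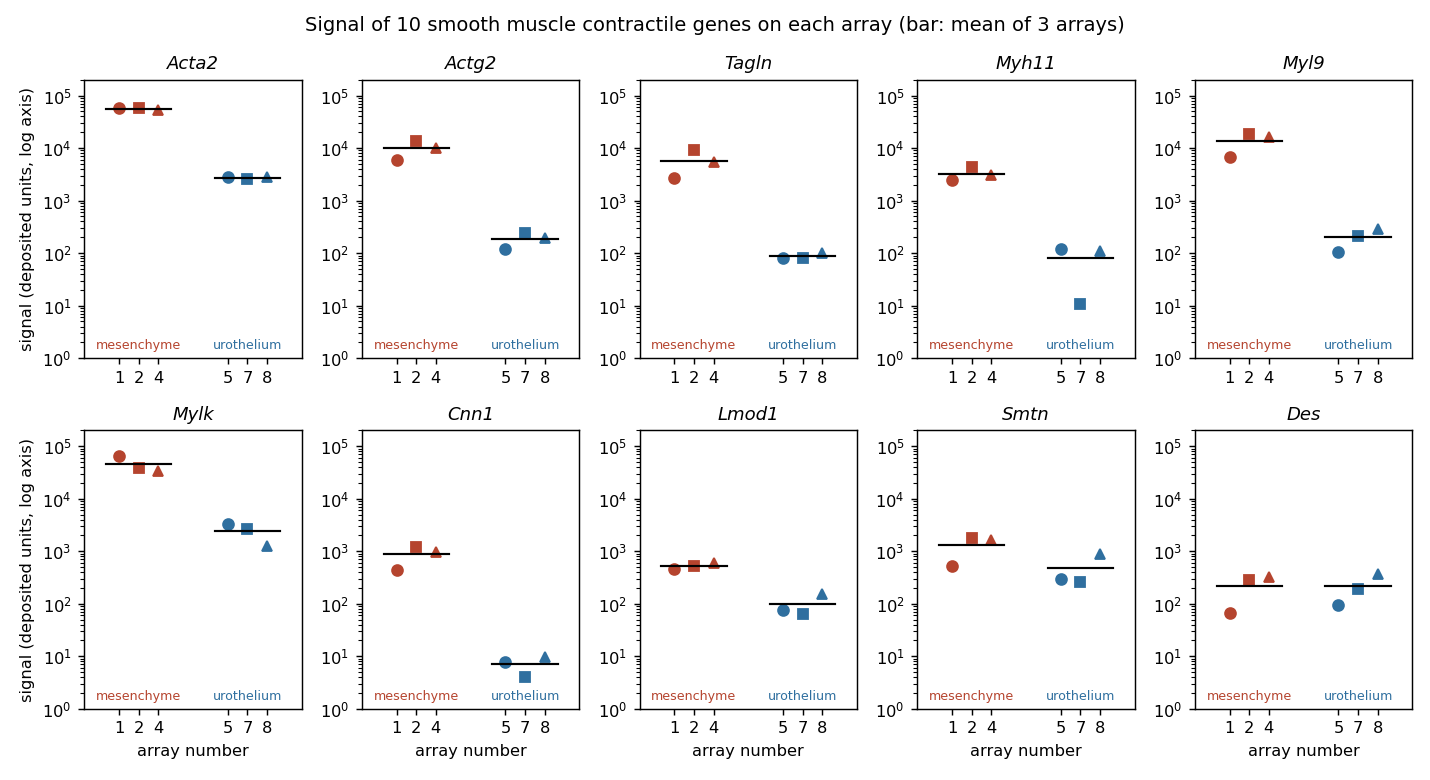
Signal of each contractile gene (vertical log axis, deposited linear units) on mesenchyme arrays 1, 2 and 4 (red, left) and urothelium arrays 5, 7 and 8 (blue, right), with the probe set of highest mean signal for each gene; bars are means of 3 arrays. In 8 panels the groups are fully apart, while Smtn and Des overlap.

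The thin filaments of smooth muscle are built from the actins of Acta2, the alpha form found in vascular and early visceral muscle, and Actg2, the gamma form typical of mature visceral muscle. Acta2 had signals of 56933, 58922 and 52353 on mesenchyme 1, 2 and 4, and of 2758, 2603 and 2857 on urothelium 5, 7 and 8. Both groups were tight, and the urothelium mean was 4.89% of the mesenchyme mean. The log2 difference was 4.33 ± 0.23 (SE), with a limma adjusted p of 2.06e-06. Actg2 had 6027, 13690 and 10116 on mesenchyme 1, 2 and 4, and 121.8, 245.0 and 192.2 on urothelium 5, 7 and 8. Its groups were also apart, but its signal on mesenchyme 1 was the lowest of the 3, and its highest mesenchyme signal was 2.27 times the lowest where that of Acta2 was 1.13 times. Actg2 differed by 5.39 ± 0.39 (limma adjusted p = 8.23e-06). On these probe sets the alpha actin was the steadier of the pair within mesenchyme.

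Of Acta2's other 2 probe sets, both dim, 1 had 392.0, 147.6 and 145.4 on mesenchyme 1, 2 and 4, against 58.4, 5.98 and 11.5 on urothelium 5, 7 and 8. It was past the test by itself (log2 difference 1.92 ± 0.47, limma adjusted p = 0.0297 over all probe sets). The last showed no difference past the test (0.16 ± 0.34). Their highest mesenchyme signals were 2.70 and 3.85 times their lowest, so the steadiness of Acta2 holds for its brightest probe set alone. With the mean of the 3 probe sets the log2 difference of Acta2 was 2.14. The actins that all cells use gave no such contrast: Actb differed by 0.20 ± 0.59 and Actg1 by -0.18 ± 0.26, neither past the test. The striated muscle actin gene Actc1, of heart and fetal skeletal muscle, had 1011, 3281 and 2096 on mesenchyme 1, 2 and 4, and 196.7, 328.8 and 197.3 on urothelium 5, 7 and 8 (2.81 ± 0.47, limma adjusted p = 0.00190). Acta1, the skeletal form, was dim and not past the test (0.97 ± 0.39).

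The stretch before the annotated transcription start of a gene of each kind is shown because these genes share a regulator: Acta2, steady in mesenchyme on its brightest probe set, Myl9, with the largest difference when 45 was added, and Des, which was not past the test. Each line holds the 250 bases before the start, 5′ to 3′ on the gene's strand, from RefSeq on GRCm38.p6, at chr19:34255374-34255623 (minus strand), chr2:156775214-156775463 (plus strand) and chr1:75360042-75360291 (plus strand). Capitals mark CArG boxes with at most 1 letter changed.
Acta2: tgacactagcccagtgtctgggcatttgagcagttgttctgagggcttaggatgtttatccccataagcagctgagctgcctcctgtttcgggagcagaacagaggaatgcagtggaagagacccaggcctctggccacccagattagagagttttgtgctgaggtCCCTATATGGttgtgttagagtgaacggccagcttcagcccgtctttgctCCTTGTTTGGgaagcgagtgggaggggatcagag
Myl9: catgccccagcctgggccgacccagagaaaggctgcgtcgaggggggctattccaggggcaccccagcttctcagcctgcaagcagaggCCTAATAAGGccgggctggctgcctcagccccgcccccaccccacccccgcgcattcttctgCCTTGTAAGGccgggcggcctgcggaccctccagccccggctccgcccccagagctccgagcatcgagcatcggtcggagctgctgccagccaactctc
Des: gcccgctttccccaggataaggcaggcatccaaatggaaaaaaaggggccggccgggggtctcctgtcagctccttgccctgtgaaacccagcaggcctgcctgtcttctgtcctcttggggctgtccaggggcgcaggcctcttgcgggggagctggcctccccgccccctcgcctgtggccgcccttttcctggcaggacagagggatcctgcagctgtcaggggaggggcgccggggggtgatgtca

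The window of Myl9 held an exact CArG box, CCTAATAAGG, from 161 to 152 bases before the start, and a second with 1 letter changed, CCTTGTAAGG, from 99 to 90. That of Acta2 held 2 with 1 letter changed, CCCTATATGG from 84 to 75 bases before the start and CCTTGTTTGG from 34 to 25. Windows of 7 members were in the RefSeq table, those of Acta2, Myl9, Mylk, Cnn1, Lmod1, Smtn and Des; Actg2, Tagln and Myh11 had none there. An exact CArG box stood in 1 of the 7 windows and in 1.47% of 32851 windows of all genes, and a CArG box with at most 1 letter changed in 3 of the 7 (Acta2, Myl9 and Lmod1) and in 18.6% of all. The CArG box reads alike on both strands, so 1 search covered both. CATTCC, the MCAT element bound by TEAD factors, was found on either strand in 4 of the 7 windows (Acta2, Lmod1, Smtn and Mylk) and in 12.6% of all. TATAAA, also searched on both strands, was in 0 of the 7 windows and in 12.4% of all. A match is a description of these letters, and no match says only that they are not in the window.

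The motor protein and its switch were strongly mesenchymal. Myh11, the smooth muscle myosin heavy chain and a late and specific marker of the lineage, had 2460, 4267 and 3107 on mesenchyme 1, 2 and 4, against 120.5, 10.9 and 111.7 on urothelium 5, 7 and 8. The groups lay far apart, with the lowest mesenchyme signal again on mesenchyme 1. The log2 difference was 4.84 ± 0.49 (limma adjusted p = 6.87e-05). A second Myh11 probe set was dim everywhere and did not separate the groups (-0.32 ± 0.36, not past the test), and the mean of both gave 2.26.

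Myl9, the regulatory light chain, had 6676, 18359 and 16274 on mesenchyme 1, 2 and 4, and 104.9, 211.5 and 282.0 on urothelium 5, 7 and 8. The log2 difference was 5.76 ± 0.45 (limma adjusted p = 1.34e-05), the largest of the 10 with 45 added; with 1 added Cnn1 exceeded it, at 6.68 against 6.09 for Myl9. The signal on mesenchyme 1 was less than that on either other mesenchyme array, which resembled each other. The light chain genes of non-muscle cells, Myl12a and Myl12b, did not share the contrast. Myl12a gave 0.36 ± 0.25 without passing the test, and Myl12b was higher in urothelium (-1.003 ± 0.24, limma adjusted p = 0.0175). The essential light chain gene Myl6 gave 0.45 ± 0.44, not past the test. Its signals were low, at 295.4, 627.2 and 465.3 on mesenchyme 1, 2 and 4, and 227.2, 289.4 and 457.1 on urothelium 5, 7 and 8.

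Mylk, the kinase that phosphorylates the light chain, broke the order of the arrays. Its brightest probe set had 65657, 38149 and 34079 on mesenchyme 1, 2 and 4, and 3340, 2676 and 1283 on urothelium 5, 7 and 8, so that mesenchyme 1 was the highest array. The log2 difference was 4.26 ± 0.38 (limma adjusted p = 3.19e-05). A second probe set designed from the same deposited sequence had 1424, 4983 and 2550 on mesenchyme 1, 2 and 4, against 111.7, 206.6 and 327.3 on urothelium 5, 7 and 8, and there mesenchyme 1 was the lowest of its group. The third, dim, had 388.0, 131.2 and 148.3 on mesenchyme 1, 2 and 4, and 9.19, 18.1 and 26.6 on urothelium 5, 7 and 8, again highest on mesenchyme 1. By themselves these probe sets differed by 3.45 ± 0.51 (limma adjusted p = 0.00163 over all probe sets) and 1.97 ± 0.43 (0.0166). All 3 thus gave Mylk as mesenchymal, while they did not give the mesenchyme arrays in 1 order. The Mylk gene makes several transcripts, among them one for the short protein telokin, and which of them each probe set reads was not tested.

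The proteins that bind and regulate the thin filament fell into a strong and a weak pair. Tagln, the actin-bundling protein SM22 alpha, had 2745, 9192 and 5376 on mesenchyme 1, 2 and 4, and 79.1, 80.6 and 99.8 on urothelium 5, 7 and 8. It differed by 5.31 ± 0.46 (limma adjusted p = 2.36e-05), and its mesenchyme arrays were spread over 3.35 times. Cnn1, calponin, which inhibits the myosin ATPase on actin, had 434.9, 1181 and 987.9 on mesenchyme 1, 2 and 4, and 7.66, 4.06 and 9.72 on urothelium 5, 7 and 8. Its urothelium signals lay below the added 45, so the log2 difference of 4.02 ± 0.45 (limma adjusted p = 0.000131) depends on that constant: it was 6.68 with 1 added and 2.41 with 179 added, past the test each time. Both genes were lowest on mesenchyme 1 and highest on mesenchyme 2.

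Lmod1, leiomodin, which nucleates actin filaments in smooth muscle, had 456.5, 521.7 and 606.4 on mesenchyme 1, 2 and 4, against 77.5, 63.2 and 154.9 on urothelium 5, 7 and 8. The mesenchyme arrays were close to each other and above all urothelium arrays. The difference was the smallest of those past the test, 2.04 ± 0.42 (limma adjusted p = 0.00715), and it was 1.36 with 179 added, still past the test. Smtn, smoothelin, an actin-binding protein of contractile smooth muscle, had 531.9, 1821 and 1649 on mesenchyme 1, 2 and 4, and 301.1, 264.0 and 887.9 on urothelium 5, 7 and 8. Its groups overlapped, since mesenchyme 1 lay below urothelium 8. The log2 difference was 1.40 ± 0.57, with a 95% interval of 0.14 to 2.66, and was not past the test (limma adjusted p = 0.149). Without mesenchyme 1 it was 1.94 and past the test (0.0352), and with array weights 2.13 (0.00126). Without both mesenchyme 1 and urothelium 5 it was 1.73 (0.0637).

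Des encodes desmin, the intermediate filament protein that ties the contractile lattice together, and it did not follow the other genes. Its brighter probe set had 65.8, 279.7 and 320.5 on mesenchyme 1, 2 and 4, and 94.3, 193.0 and 364.7 on urothelium 5, 7 and 8. These ranges overlapped, with the lowest signals of each group on mesenchyme 1 and urothelium 5. The log2 difference was -0.02 ± 0.58, with a 95% interval of -1.29 to 1.26 (limma adjusted p = 0.993), which leaves room for a difference of over 2-fold either way. The second probe set, from the same deposited sequence, had 343.9, 98.9 and 134.0 on mesenchyme 1, 2 and 4, against 61.1, 62.5 and 88.7 on urothelium 5, 7 and 8. It separated the groups narrowly, with mesenchyme 1 the highest, but was not past the test (0.90 ± 0.47, limma adjusted p = 0.332 over all probe sets). Vim, the intermediate filament gene of mesenchymal cells at large, had 70857, 58264 and 63557 on mesenchyme 1, 2 and 4, and 3157, 2785 and 5722 on urothelium 5, 7 and 8 (4.10 ± 0.30, limma adjusted p = 9.67e-06).

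**Figure D2:**
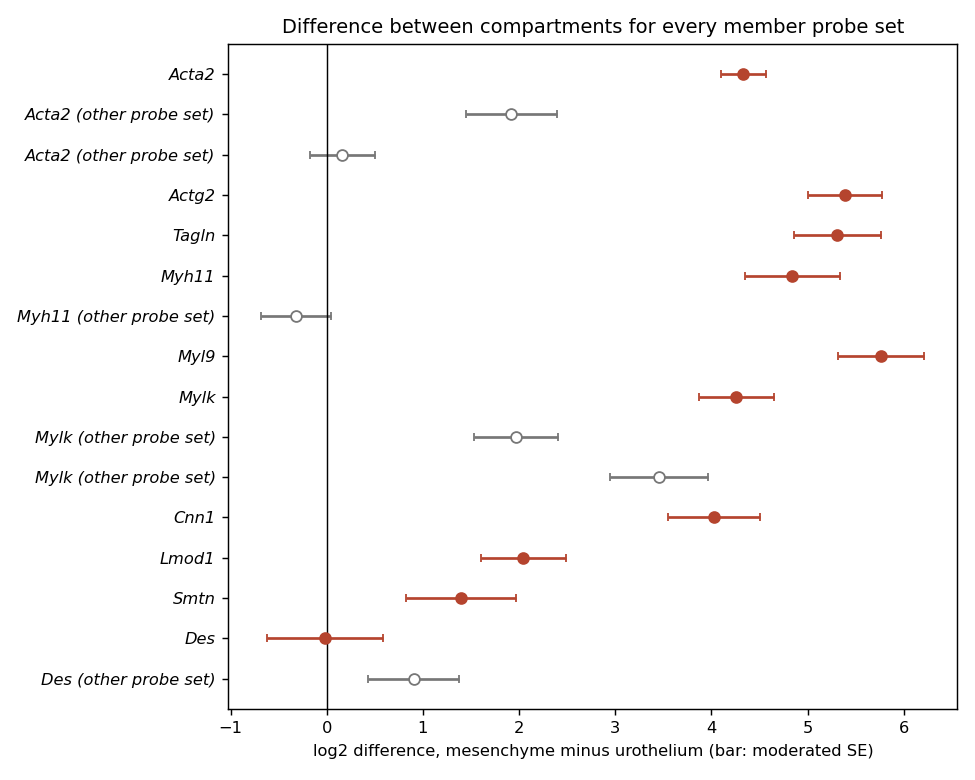
Log2 difference between compartments, mesenchyme minus urothelium, for each of the 16 probe sets, with the moderated standard error. Filled red points are the probe sets used for the genes and open grey points the others; Myl9 lies furthest right at 5.76, and the used Des probe set (-0.02) and the second Myh11 probe set (-0.32) lie left of 0.

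Read by probe set, 11 of the 16 were higher in mesenchyme past the test over all probe sets, against 5.75% of all probe sets in that direction and 9.41% in either, and 12 of 16 separated the groups without overlap, against 15.3% of all. Of the 10 genes 6 had a single probe set, so their values have no second reading on these arrays. The signal that the contractile genes kept in urothelium, as a share of the mesenchyme mean, had a median of 4.30% on urothelium 5, 3.55% on urothelium 7 and 3.10% on urothelium 8. The same share for the 8 fibroblast markers was 2.48%, 2.50% and 1.99% on those arrays. Among the contractile genes it ran, over group means, from 0.823% for Cnn1 to 97.9% for Des, with 18.7% for Lmod1 and 36.3% for Smtn. What part of the urothelium signal comes from mesenchyme carried along was not tested.

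Array by array, the contractile genes did not form 1 block within mesenchyme. On mesenchyme 1, 8 of the 10 genes had their lowest mesenchyme signal, against 36.4% of all genes and 44.4% of the 1636 genes higher in mesenchyme. The exceptions were Acta2 and Mylk, both lowest on mesenchyme 4. The median log2 signal of the 10 genes on mesenchyme 1, minus the mean of mesenchyme 2 and 4, was -1.09, against 0.10 over all genes and -0.06 over the genes higher in mesenchyme; 8.3% of all genes and 9.72% of those higher in mesenchyme had a value at or below -1.09. With the mean of each gene's probe sets the median was -0.62. Single genes ran from -1.64 for Des, -1.62 for Smtn, -1.37 for Myl9, -1.34 for Tagln and -1.23 for Cnn1 through -0.96 for Actg2, -0.56 for Myh11 and -0.28 for Lmod1 to 0.04 for Acta2 and 0.86 for Mylk. With 1 array a replicate there is no test within the group.

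**Figure D3:**
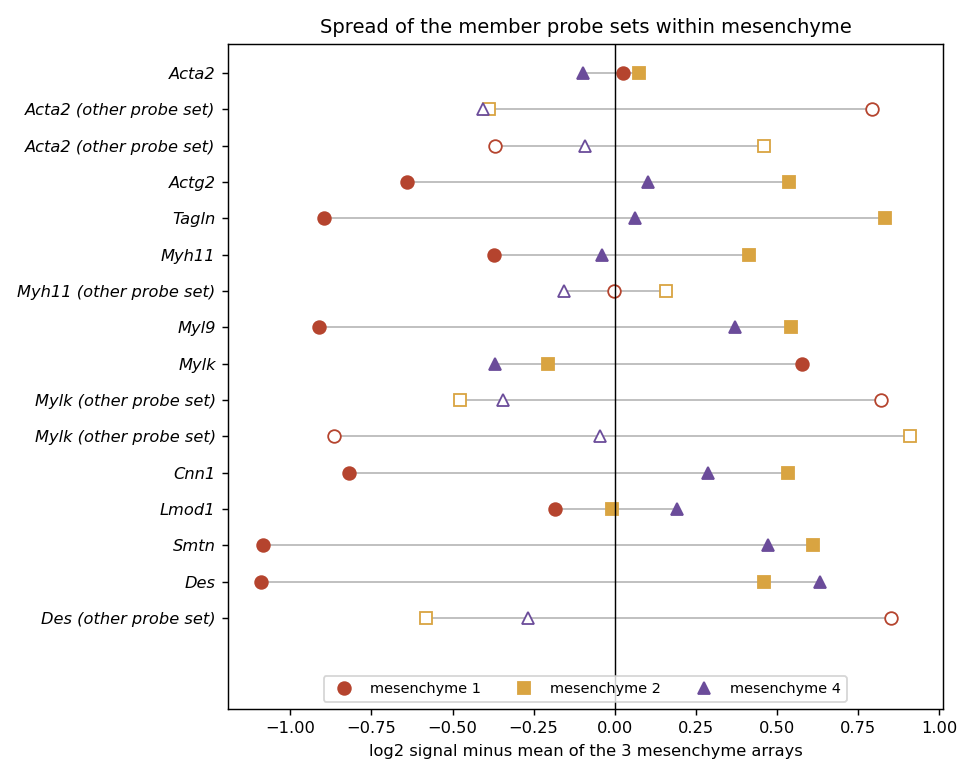
Log2 signal of each of the 16 probe sets on mesenchyme 1, 2 and 4, minus the mean of the 3 arrays. Filled symbols are the probe sets used for the genes and open symbols the others; mesenchyme 1 lies left of the other arrays for most, but furthest right for both Mylk probe sets that are not lowest there, for 1 other Acta2 probe set and for the second Des probe set.

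Of the 16 probe sets 10 were lowest and 4 highest on mesenchyme 1, and 10 were highest on mesenchyme 2. The 16 are repeated readings of 10 genes. The same shares over all probe sets were not worked out, so these counts only describe the members. The 4 that were highest on mesenchyme 1 belong to Acta2, Mylk (2 of its 3) and Des, and each of these 3 genes also had a probe set that was lowest there. By the median, mesenchyme 2 and mesenchyme 4 lay closer: their signed log2 difference, mesenchyme 2 minus 4, had a median of 0.17, against -0.0019 over all genes. Single genes ran from -0.20 for Lmod1 to 0.77 for Tagln, and mesenchyme 2 was the higher for 8 of 10. Beta-actin showed the same low array as the contractile genes, with Actb at 18308, 53731 and 42840 on mesenchyme 1, 2 and 4, and at 10732, 45283 and 56745 on urothelium 5, 7 and 8. Actg1 did not, with 98594, 76213 and 73882 on mesenchyme 1, 2 and 4, and 101786, 95431 and 83306 on urothelium 5, 7 and 8. The beta-actin 3' to 5' ratio was highest on mesenchyme 1 within its group and the Gapdh ratio lowest; their part in the low values of mesenchyme 1 was not tested.

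Markers of other cell types differed in how they stood on mesenchyme 1. The median of the same difference, mesenchyme 1 minus the mean of mesenchyme 2 and 4, was 0.29 over fibroblast markers, -0.04 over endothelial markers, -0.33 over mural markers, -0.49 over macrophage markers, -0.61 over mesothelial markers, 0.49 over red cell markers, 0.42 over neural crest and glial markers and 0.28 over epithelial markers. The fibroblast markers were themselves mixed, from -1.51 for Cdh11 and -0.95 for Postn to 1.08 for Col1a2. Mural cells, the pericytes and muscle cells of vessels, share Acta2, Tagln and Myh11 with the bladder wall. Of their 10 markers 6 were higher in mesenchyme, against 8.99% of all genes, and none in urothelium. Their signals summed to between 13593 and 24323 on mesenchyme arrays and to between 4271 and 7872 on urothelium arrays. Pdgfrb, a growth factor receptor gene on this list, had 2367, 7470 and 8047 on mesenchyme 1, 2 and 4, and 139.3, 249.1 and 268.8 on urothelium 5, 7 and 8. It was lowest on mesenchyme 1 within its group, as were 5 of the 10 mural markers and 8 of the 10 contractile genes. The adhesion molecule gene Mcam ran the other way, at 2714, 1626 and 1332 on mesenchyme 1, 2 and 4, against 30.0, 18.3 and 15.2 on urothelium 5, 7 and 8. Kcnj8, the channel gene of pericytes, differed by 2.47 ± 0.51 (limma adjusted p = 0.00695). The part of mural cells in the contractile signal was not tested.

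All 8 endothelial markers were higher in mesenchyme, with sums of 16106 to 20200 on mesenchyme arrays and 1143 to 1556 on urothelium arrays, and the largest differences were those of the cadherin gene Cdh5 (4.94 ± 0.42), the receptor genes Tek (4.32 ± 0.51) and Kdr (3.98 ± 0.59). Of 8 macrophage markers 6 were higher in mesenchyme, led by Csf1r (3.97 ± 0.34). Of 5 mesothelial markers 2 were higher in mesenchyme, the transcription factor gene Wt1 (3.19) and Lrrn4 (3.02), and 2 in urothelium, Msln (-5.16) and Krt19 (-4.49). Krt19 is also among the epithelial markers counted above. Of 3 measured neural crest and glial markers only Erbb3 was past the test, and it was higher in urothelium (-5.10). The other 2 were not, among them Sox10 (-0.18 ± 0.47), and which cells gave the Erbb3 signal was not tested. Of 4 measured red cell markers 3 were higher in mesenchyme, led by Hbb-bh1 (1.87). Over all genes, 8.99% were higher in mesenchyme and 5.75% in urothelium.

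Beyond the 10 genes, 73 further genes of contraction were listed in 6 groups, of which 66 had a probe set with a single symbol. Of these 25 were higher in mesenchyme, against 8.99% of all genes, and 4 in urothelium, a share near the 5.75% of all genes, with a median log2 difference of 0.92 against 4.29 for the 10 genes and 0.11 for all genes. Among 13 thin filament and dense body partners 9 were higher in mesenchyme and none in urothelium (median 2.05): the tropomyosin gene Tpm2 had 11004, 21469 and 18466 on mesenchyme 1, 2 and 4, and 930.8, 828.0 and 928.6 on urothelium 5, 7 and 8 (4.12 ± 0.30, limma adjusted p = 9.55e-06). Pdlim3, an actinin-binding adaptor, and Nexn, an actin-binding protein, differed by 2.95 ± 0.39 and 2.87 ± 0.29. Among 15 genes of membrane attachment 7 were higher in mesenchyme (median 1.48), led by Pgm5, a protein of adhesion plaques (5.28 ± 0.59), and by the sarcoglycan gene Sgce (4.25 ± 0.33) and Sspn, sarcospan (4.09 ± 0.40).

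Of the genes of the myosin phosphatase, Ppp1r14a, the phosphatase inhibitor CPI-17, had 710.3, 628.9 and 674.6 on mesenchyme 1, 2 and 4, and 139.5, 15.9 and 77.2 on urothelium 5, 7 and 8 (2.69 ± 0.48, limma adjusted p = 0.00285). Ppp1r12b, a targeting subunit of the phosphatase, was higher in mesenchyme (1.60 ± 0.31), while its relative Ppp1r12a was higher in urothelium (-1.001 ± 0.29, limma adjusted p = 0.0443). Of 11 measured calcium channels and receptors 4 were higher in mesenchyme, against 8.99% of all genes (median of the list 0.95). The L-type calcium channel genes Cacna1d (3.45 ± 0.47) and Cacna1c (2.67 ± 0.44) and the ryanodine receptor gene Ryr2 (2.54 ± 0.46) led this group.

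Most paralogs of the 10 genes showed no such contrast: of 15 non-muscle and other paralogs 11 were not past the test (median of the 15 genes 0.36). Higher in mesenchyme were 2, against 8.99% of all genes, and higher in urothelium were 2, against 5.75%. Beside Vim, Cnn2, the calponin of non-muscle cells, had 12369, 29674 and 22307 on mesenchyme 1, 2 and 4, and 1768, 1655 and 1788 on urothelium 5, 7 and 8 (3.50 ± 0.33, limma adjusted p = 4.06e-05). Beside Myl12b, the non-muscle myosin gene Myh14 was higher in urothelium (-1.60 ± 0.42, limma adjusted p = 0.0266). Of the regulators, Myocd, the gene of myocardin, had 1654, 9243 and 5043 on mesenchyme 1, 2 and 4, against 135.5, 87.4 and 105.7 on urothelium 5, 7 and 8 (4.81 ± 0.56, limma adjusted p = 0.000163). Its order of arrays within mesenchyme was that of Tagln, and the share of all genes with that order was not worked out. Srf had 3606, 7200 and 6444 on mesenchyme 1, 2 and 4, and 2301, 3406 and 2866 on urothelium 5, 7 and 8, a difference not past the test (0.96 ± 0.32, limma adjusted p = 0.0803). Mrtfb, a coactivator related to myocardin, was higher in urothelium (-1.11 ± 0.30, limma adjusted p = 0.0296). The 4 of the 66 genes higher in urothelium are Ppp1r12a, Myh14, Myl12b and Mrtfb. Without mesenchyme 2 or without urothelium 7 that count was 0, and without mesenchyme 4 it was 2. Over these 66 genes the median log2 signal on mesenchyme 1, minus the mean of mesenchyme 2 and 4, was -0.0042. The 10 members had -1.09. Of the 66, 29 were lowest on mesenchyme 1, against 36.4% of all genes. By list that median was -0.85 for Myocd, Srf, Mrtfa and Mrtfb, -0.40 for thin filament and dense body partners and -0.04 for paralogs. It was 0.31 for membrane attachment and 0.87 for calcium channels and receptors.

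**Figure D4:**
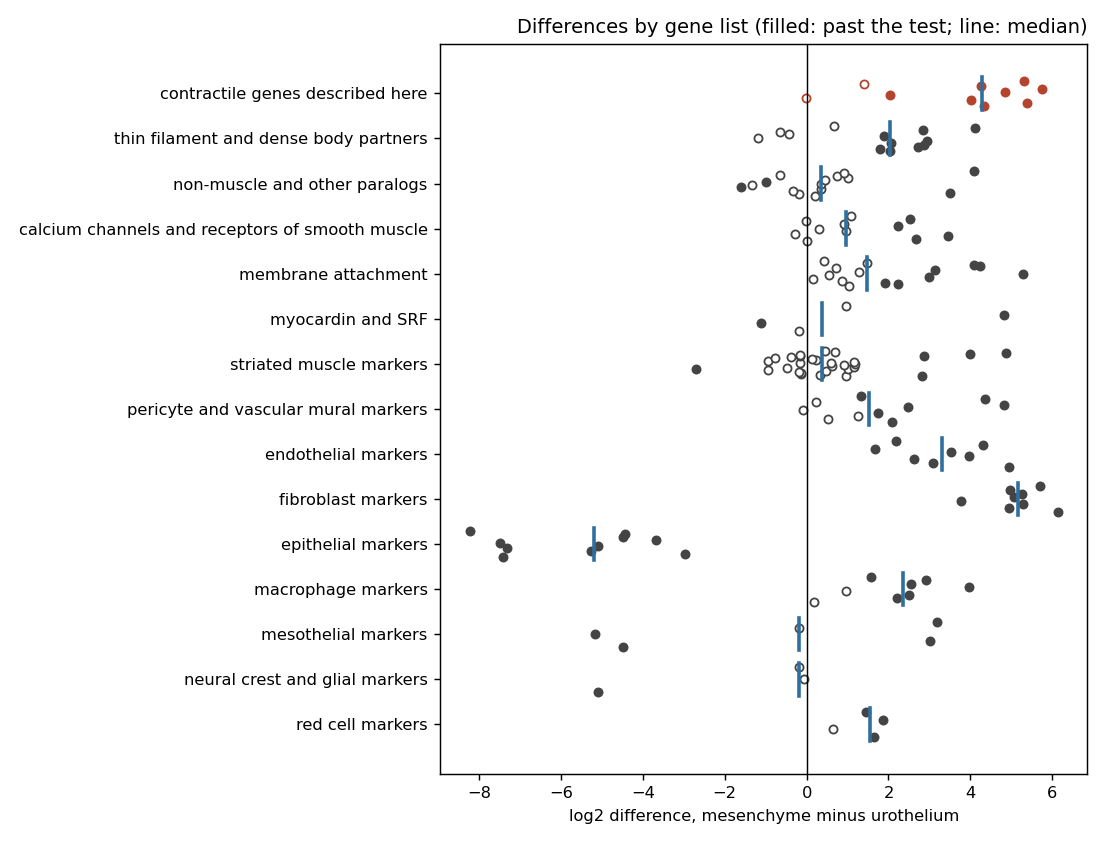
Log2 difference, mesenchyme minus urothelium, of every measured gene in 15 lists; filled points passed the test, and the blue line is the list's median. The 10 contractile genes have a median of 4.29, between that of the endothelial markers (3.30) and that of the fibroblast markers (5.16).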

How the data were processed

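The authors deposited 1 table of linear signal intensity for 45101 probe sets on 6 arrays; GCOS is named per the submitters' processing notes, and the sources used here give neither its algorithm and settings nor a genome build. The 2% trimmed mean was 1500 on every array, so no further scaling was done. The number of arrays limits the precision. Symbols came from the platform annotation; 64 control probe sets and those with several symbols (932) or none (9160) named no gene, and of 34945 single symbols 34741 matched RefSeq by Entrez identifier, with 0 changed.

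Each of the 18193 genes was read from its brightest probe set by mean signal. Signals were taken as log2(signal + 45), 45 being the 25th percentile of all values. Compartments were compared with limma 3.58.1 in R 4.3.3 (lmFit, eBayes with an intensity trend), and p-values were adjusted by Benjamini and Hochberg over all genes, or over 34945 probe sets where stated. The fit was tested on simulated data. The members and lists were chosen with earlier results of these data known. Named genes are the 10 members, up to 3 genes of largest difference per list (the 2 brightest where fewer than 2 passed), the paralogs and regulators Acta1, Actc1, Actb, Actg1, Myl6, Myl12a, Myl12b, Myocd and Srf, and the 5 genes of nearest profile. One of the lists is not reported by itself here. Lrrn4, Pdgfra, Dcn, Col1a1 and Krt8 are further list members. Alternatives were other pseudocounts (1 and 179), quantile normalization, median centring, a filter on dim genes, no trend, array weights, other uses of probe sets and arrays left out.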

Additional observations from a re-analysis of the deposited data

How the results depend on the processing

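No paired analysis was possible because mesenchyme and urothelium arrays share no replicate number. The 8 contractile genes past the test were past it again, in the same direction, under every alternative that tested them (16 for 6 genes, 15 for Cnn1 and Lmod1, which the filter on dim genes removed along with Des). Of these 8 genes Lmod1 came closest to the threshold, with a limma adjusted p of 0.0474 without urothelium 7. The count of members past the test was 8 or 9 when single arrays were left out. Smtn was past the test under 2 of 16 alternatives. The sign of Des turned with 179 added (0.0071), with array weights (0.39), with the mean of probe sets (0.44), without mesenchyme 1 (0.53), without urothelium 8 (0.37) and without mesenchyme 1 and urothelium 5 (0.14), never past the test; with single arrays left out it ran from -0.40 to 0.53. Of the 66 other contractile genes, 2 were higher in urothelium when no intensity trend was fitted, 2 when probe sets were averaged and 7 with array weights, and from 0 to 4 with single arrays left out. Array weights raised the counts over all genes to 3033 in mesenchyme and 2074 in urothelium, and leaving out single arrays gave from 652 to 1061 in urothelium. The cause of these changes was not tested. The median log2 difference over all genes was 0.11, or -0.17 with arrays centred on their medians. Signals near 45 and below carry little information on the size of a difference. No detection calls were used.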

Other observations

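Of 30 measured markers of striated muscle 4 were higher in mesenchyme, against 8.99% of all genes, and 5 in either direction, a share near the 14.7% of all genes. Those higher in mesenchyme were the troponin genes Tnnt2 (4.88 ± 0.51), Tnnt1 (3.996 ± 0.40) and Tnni1 (2.87 ± 0.65) and the actin gene Actc1, and the myosin gene Myh7 (-2.70) was higher in urothelium. The other 25 were not past the test, among them the skeletal muscle regulators Myod1 (0.23), Myog (0.13), Myf5 (-0.18) and Myf6 (0.46), named after their values were seen. Tnnt2 had 2398, 5407 and 3470 on mesenchyme 1, 2 and 4, and 21.3, 79.1 and 179.9 on urothelium 5, 7 and 8. Tnnt1 had 2194, 4018 and 3344 on mesenchyme 1, 2 and 4, and 194.9, 176.3 and 98.1 on urothelium 5, 7 and 8. Both were lowest on mesenchyme 1 and highest on mesenchyme 2, the order of Tagln, Cnn1 and Myh11. The share of all genes with this order was not worked out. Of the 30 markers 8 were lowest on mesenchyme 1, against 36.4% of all genes. Their median log2 signal on mesenchyme 1, minus the mean of mesenchyme 2 and 4, was 0.22. The summed signal of the list was 10225 to 16849 on mesenchyme arrays and 3301 to 4613 on urothelium arrays.

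The genes whose centred log2 signals over the 6 arrays lay nearest to the mean of the 10 contractile genes were Slit3, Niban1, Cnn2, Icam2 and Tenm4, at root mean square distances of 0.16, 0.17, 0.195, 0.20 and 0.21. Among the 10 genes themselves the distance ran from 0.23 for Cnn1 to 1.93 for Des. Slit3, which encodes a secreted guidance protein, had 418.1, 938.1 and 855.6 on mesenchyme 1, 2 and 4, and 8.83, 8.77 and 9.31 on urothelium 5, 7 and 8. The likeness is a description over 6 arrays that share a compartment.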
